A study of Homo sapiens and Mus musculus with 12 samples.

Results

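The Ikaros family of zinc finger transcription factors was followed in natural killer (NK) cells that lack EHMT2 or were treated with an EHMT2 inhibitor. EHMT2 (G9a) is a histone methyltransferase that places the mono- and dimethyl marks on lysine 9 of histone H3. The members were the rows of the deposited count tables with the symbols Ikzf1, Ikzf2, Ikzf3 and Ikzf5 in mouse, 4 of 22021 listed genes, and IKZF1, IKZF2, IKZF3 and IKZF5 in human, 4 of 18304. All 8 passed the filter on low counts. The mouse RNA-seq libraries were made from sorted splenic NK cells of C57BL/6J mice aged 8 to 12 weeks. The 3 WT libraries came from Ehmt2 flox/flox mice, and the 3 KO libraries from Ehmt2 flox/flox mice that carry Ncr1-iCre, in which Cre is driven by the Ncr1 locus and so acts in cells that express the receptor NKp46. The genotype label of the KO libraries reads Ezh2-KO, whereas their titles name EHMT2. The human libraries, 3 and 3, came from NK92MI, an NK lymphoma line that makes its own IL-2 from a transgene, treated with BIX-01294, an inhibitor of EHMT2, or with the solvent DMSO. The dose and time of the sequenced cultures were not given in the sources used here, and the assays on NK92MI cells in the same study used 0.25 micromolar for 5 days.

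Ikaros (IKZF1), Helios (IKZF2), Aiolos (IKZF3) and Pegasus (IKZF5) bind DNA through zinc fingers near the start of the protein and pair with each other through a group of fingers at its end. Ikaros and Aiolos recruit the NuRD chromatin remodelling complex to their target genes, and both are marked for destruction by the ubiquitin ligase subunit cereblon when a cell is given lenalidomide or a related drug. In NK cells, Ikaros acts in the development of lymphoid progenitors, Aiolos in terminal maturation, and Helios has been tied to how reactive NK cells are.

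The coding sequences of single zinc fingers, taken from GENCODE 44 transcripts on GRCh38, show how closely the members are related. The second finger, counted from the start of the protein, is shown because it belongs to the DNA-binding group. It is printed from the codon of its first cysteine to that of its last histidine, 63 bases in each gene, with capitals where a base differs from IKZF1. It lies on chr7:50382557-50382619 (plus strand, exon 5) in IKZF1, chr17:39791504-39791566 (minus strand, exon 5) in IKZF3, chr2:213049801-213049863 (minus strand, exon 6) in IKZF2 and chr10:122994644-122994706 (minus strand, exon 5) in IKZF5.
IKZF1: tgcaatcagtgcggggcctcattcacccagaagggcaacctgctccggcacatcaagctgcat
IKZF3: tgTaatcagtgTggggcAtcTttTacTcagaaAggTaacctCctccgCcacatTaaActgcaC
IKZF2: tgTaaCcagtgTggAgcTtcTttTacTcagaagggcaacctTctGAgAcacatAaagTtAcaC
IKZF5: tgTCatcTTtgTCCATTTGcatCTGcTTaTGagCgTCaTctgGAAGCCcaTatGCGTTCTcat
IKZF3 shares 79.4% of these bases with IKZF1, IKZF2 74.6% and IKZF5 41.3%. Fingers were paired here by their number from the start of the protein. Since 5 fingers were found in IKZF5 and 6 in the others, its second finger may not be the counterpart of theirs. The value for IKZF5 is therefore no measure of how closely it is related.

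The penultimate finger belongs to the group through which the proteins pair, and is shown because it is the stretch that IKZF5 shares with the others. It is the fifth of 6 fingers found in IKZF1, IKZF2 and IKZF3 and the fourth of 5 in IKZF5, again 63 bases long. It lies on chr7:50400457-50400519 (plus strand, exon 8) in IKZF1, chr17:39765898-39765960 (minus strand, exon 8) in IKZF3, chr2:213007462-213007524 (minus strand, exon 9) in IKZF2 and chr10:122993882-122993944 (minus strand, exon 5) in IKZF5. Capitals again mark bases that differ from IKZF1.
IKZF1: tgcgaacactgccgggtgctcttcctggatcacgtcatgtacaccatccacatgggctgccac
IKZF3: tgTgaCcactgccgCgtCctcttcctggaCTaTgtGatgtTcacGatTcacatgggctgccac
IKZF2: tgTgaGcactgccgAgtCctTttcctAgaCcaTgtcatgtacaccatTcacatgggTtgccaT
IKZF5: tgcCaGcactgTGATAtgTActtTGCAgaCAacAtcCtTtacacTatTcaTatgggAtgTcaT
Here IKZF2 and IKZF3 each share 82.5% of bases with IKZF1, and IKZF5 shares 61.9%.

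Levels are given in CPM, counts scaled to a common library size after TMM normalization, and fold changes come from edgeR's quasi-likelihood test with Benjamini-Hochberg adjustment over all genes tested, called at an adjusted p under 0.05. The mouse libraries held 25891680 (WT replicate 2) to 37438868 counts and the human libraries 16579469 to 17165446. The targeted gene Ehmt2 stood at 275, 284 and 285 CPM in WT replicates 1 to 3 against 171, 143 and 137 CPM in KO, a log2 fold change of −0.91 (SE 0.10, adjusted p = 0.0162). Its adjusted p was 0.121 without KO replicate 3, 0.0986 without KO replicate 2 and 0.0587 without WT replicate 3, and counts summed over the whole gene cannot place the remaining reads inside or outside the deleted exons. The NK label was checked against 11 pan-NK genes such as Klrb1c, Nkg7 and Eomes, all of which were detected in mouse. Their summed level was 5398 to 9145 CPM in WT and 9733 to 11519 CPM in KO, and 5 of 11 passed the test, all higher in KO. B cell and myeloid genes had lower values in KO. The sum of 10 B cell genes was 586 to 1667 CPM in WT and 103 to 539 CPM in KO, lower in KO for 10 of 10 genes, of which 1 passed. That of 9 macrophage and monocyte genes was 2564 to 6598 CPM in WT and 1376 to 2501 CPM in KO, lower for 9 of 9, of which 5 passed. The 8 T cell genes were mixed, with 6 lower and 2 higher, and 1 of these passed, Cd3g, which was higher in KO (log2 fold change 0.59, adjusted p = 0.0452). In NK92MI cells 9 NK genes summed to 3679 to 4021 CPM with DMSO and 4314 to 5320 CPM with BIX-01294. They were mixed, with 7 higher, of which 5 passed, and 2 lower, of which 2 passed. The lower ones were EOMES and IL2RB (log2 fold change −0.17 and −0.16, adjusted p = 0.044 and 0.046). The 6 listed of 8 B and T cell markers summed to 14.1 to 15.0 CPM with DMSO and 25.0 to 27.4 CPM with BIX-01294. All 3 tested were higher and 2 passed, PAX5 (12.1 to 13.6 CPM against 22.1 to 24.3 CPM, log2 fold change 0.86, adjusted p = 2.62e-05) and CD79A (1.02, adjusted p = 0.0399), while MS4A1 and CD4 were under 1 CPM.

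The family was made up differently in the mouse and human cells. Per kilobase of exon, mouse WT NK cells held most Ikzf1, then Ikzf3, Ikzf5 and Ikzf2, whereas DMSO-treated NK92MI cells held most IKZF3, then IKZF2, IKZF1 and IKZF5. In WT NK cells the levels were 97.6 ± 11.9 CPM per kilobase (SD, n = 3) for Ikzf1, 27.7 ± 5.12 for Ikzf3, 6.76 ± 0.282 for Ikzf5 and 0.955 ± 0.0466 for Ikzf2. In DMSO-treated NK92MI cells they were 92.6 ± 2.47 CPM per kilobase (SD, n = 3) for IKZF3, 37.5 ± 2.40 for IKZF2, 14.8 ± 0.499 for IKZF1 and 8.39 ± 0.110 for IKZF5. No neighbours in either order overlapped between libraries. The order was kept in KO NK cells, where Ikzf1 stood at 116 ± 11.4, Ikzf3 at 37.7 ± 7.74, Ikzf5 at 7.58 ± 0.471 and Ikzf2 at 0.985 ± 0.111 CPM per kilobase. After BIX-01294 the mean order was also kept, but IKZF1 at 10.1 ± 0.920 CPM per kilobase and IKZF5 at 9.22 ± 0.582 overlapped between libraries (9.15 to 10.99 against 8.66 to 9.82). Exon lengths are those of all annotated isoforms joined, so they may exceed the transcripts these cells make, and the comparison is of order rather than of exact ratios. The place of Ikzf5 in the mouse order is uncertain. Other annotated genes overlap 84.5% of its exon bases on the other strand, and how the counting treated such reads was not given in the sources used here. The species differ in cell source as well, since one is a sorted tissue population and the other a lymphoma line.

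**Figure D1:**
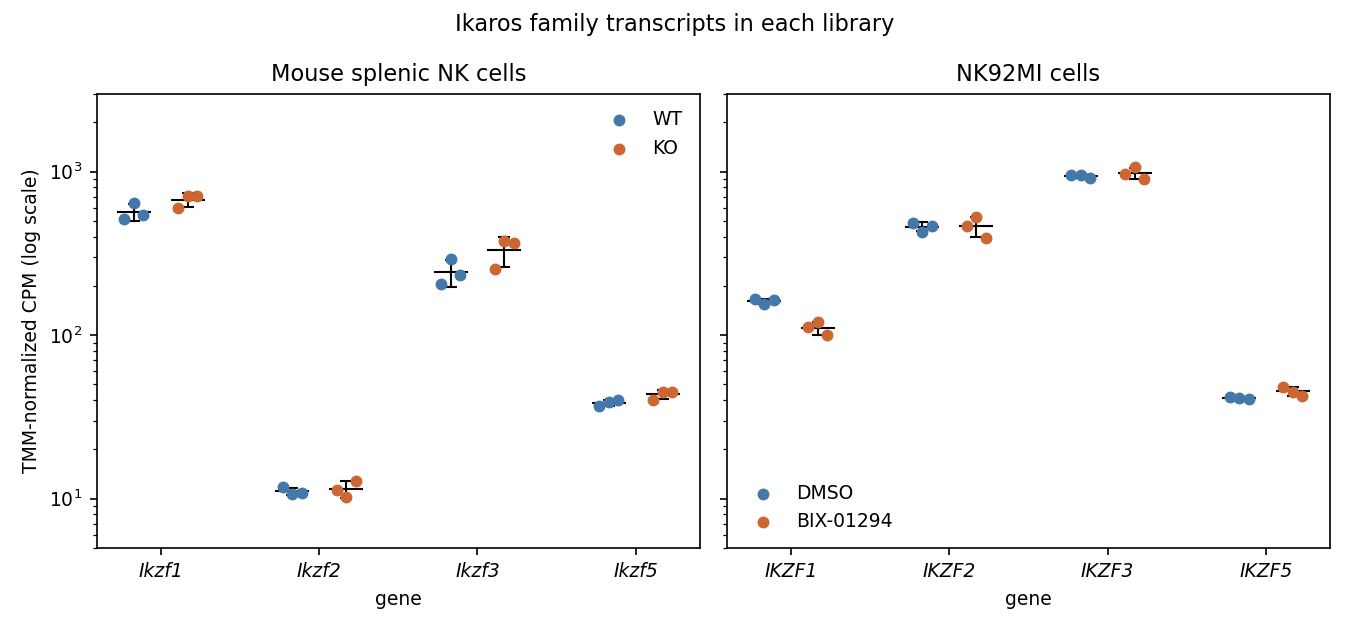
TMM-normalized CPM (log axis) of the 4 family members in each library of mouse splenic NK cells (left, WT and KO) and NK92MI cells (right, DMSO and BIX-01294). Points are libraries and black bars are the mean and SD of 3. The BIX-01294 points of IKZF1 lie at 99.96 to 120 CPM, below the DMSO points at 155 to 166 CPM, whereas the groups of Ikzf1, Ikzf2, Ikzf3, IKZF2 and IKZF3 overlap.

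IKZF1 was the member that changed. In NK92MI cells it was counted at 166, 155 and 163 CPM in the DMSO libraries and at 111, 120 and 99.96 CPM in BIX-01294 replicates 1, 2 and 3. Each BIX-01294 library lay below each DMSO library, as in 23.9% of all genes tested. The log2 fold change was −0.55 (SE 0.07, 95% confidence interval −0.70 to −0.39, adjusted p = 6.98e-05), a decrease to 0.685 of the DMSO level. In edgeR's test it also passed the thresholds of the study, an adjusted p below 0.01 with an absolute log2 fold change above 0.5. The study applied them to DESeq2. With 1 library left out the log2 fold change lay between −0.605 and −0.47, so the cut at 0.5 was not always met. So 1 of the 4 human members was called, against 36.9% of the 12727 genes tested in either direction and 18.4% in the lower direction, and at the thresholds of the study 5.43% of genes were lower. With 4 members, 1 call lies close to these shares and is not read as a result about the family. IKZF1 lies on chromosome 7 of GRCh38 from 50304068 to 50405101 on the plus strand, and 1.01% of its exon bases are overlapped by another annotated gene, on the other strand. EHMT2 itself was lower with the inhibitor, at 57.7 ± 3.66 CPM (SD, n = 3) with DMSO and 38.5 ± 2.39 CPM with BIX-01294 (log2 fold change −0.58, SE 0.08, adjusted p = 0.000101).

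Helios, IKZF2, did not pass. It was counted at 484, 427 and 467 CPM with DMSO and at 467, 526 and 393 CPM with BIX-01294, and the groups overlapped. Its log2 fold change was 0.01 (SE 0.09, 95% confidence interval −0.19 to 0.20, adjusted p = 0.952), and its sign changed without BIX replicate 2 (−0.09) and without a DMSO library (−0.04).

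Aiolos, IKZF3, the most abundant member in this line, had 957, 947 and 909 CPM with DMSO and 968, 1062 and 903 CPM with BIX-01294. The BIX-01294 libraries spanned the range of the DMSO libraries. The log2 fold change was 0.06 (SE 0.07, 95% confidence interval −0.08 to 0.20, adjusted p = 0.51). Pegasus, IKZF5, had 41.9, 41.3 and 40.8 CPM with DMSO and 48.4, 45.1 and 42.7 CPM with BIX-01294. Each BIX-01294 library lay above each DMSO library, as in 24.1% of all genes tested, but the difference did not pass (log2 fold change 0.14, SE 0.08, 95% confidence interval −0.03 to 0.30, adjusted p = 0.196). The fifth member of the family, Eos (IKZF4), was counted at 18.7, 17.7 and 19.5 CPM with DMSO and at 15.7, 15.5 and 15.6 CPM with BIX-01294 (log2 fold change −0.26, SE 0.10, adjusted p = 0.0576).

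**Figure D2:**
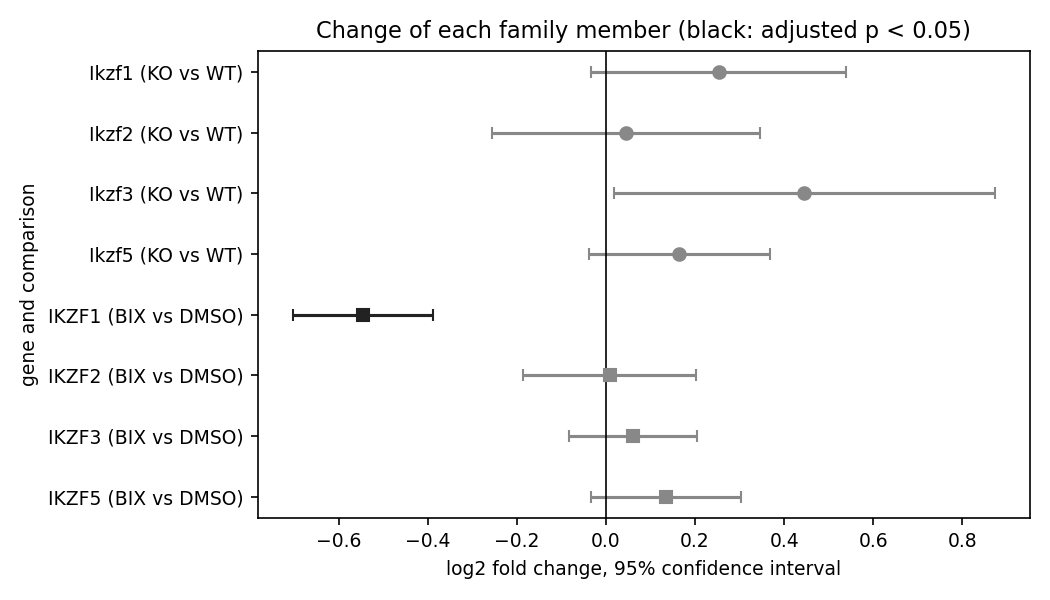
Log2 fold change of each family member with its 95% confidence interval, for KO against WT NK cells (circles) and BIX-01294 against DMSO in NK92MI cells (squares). The interval of IKZF1, −0.70 to −0.39, is the one drawn in black for an adjusted p under 0.05. That of Ikzf3, 0.02 to 0.87, is the widest.

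In mouse NK cells 0 of the 4 members passed the test, against 11.9% of the 13189 genes tested by edgeR, 4.44% higher and 7.43% lower. At an unadjusted p under 0.05, 1 member and 35.8% of all genes passed, while DESeq2 and limma-voom called 0 members after adjustment. Aiolos, Ikzf3, had the largest difference of the 4. Its level was 204, 292 and 231 CPM in WT replicates 1 to 3, against 252, 375 and 364 CPM in KO replicates 1 to 3. KO replicates 2 and 3 lay above every WT replicate, but KO replicate 1 lay below WT replicate 2. The log2 fold change was 0.45 (SE 0.18, 95% confidence interval 0.02 to 0.87), with an unadjusted p of 0.0432 and an adjusted p of 0.128 in edgeR's test across all genes. Its side of the threshold depended on the libraries and the fit. Without KO replicate 1 the log2 fold change was 0.60 (adjusted p = 0.0458) and without WT replicate 2 it was 0.60 (adjusted p = 0.0412), and over all alternatives the adjusted p lay between 0.0189, in a fit with the replicate number as a block, and 0.335.

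Ikzf1 reached 510, 642 and 540 CPM in WT against 596, 707 and 713 CPM in KO. As for Ikzf3, WT replicate 2 lay above KO replicate 1 and the groups overlapped. The log2 fold change was 0.25 (SE 0.12, 95% confidence interval −0.03 to 0.54, adjusted p = 0.18). Mouse and human libraries were fitted apart and differ in cell source and in the way EHMT2 was targeted, so the difference between Ikzf1 and IKZF1 was not tested.

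Ikzf2 was scarce in splenic NK cells, at 11.7, 10.7 and 10.9 CPM in WT and 11.3, 10.2 and 12.8 CPM in KO, from 276 to 467 counts per library. The groups overlapped, and the log2 fold change was 0.04 (SE 0.13, 95% confidence interval −0.26 to 0.35, adjusted p = 0.824). Its sign changed without KO replicate 3 (−0.04).

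Ikzf5 had 36.9, 39.0 and 40.1 CPM in WT and 40.2, 44.8 and 45.0 CPM in KO. Each KO replicate lay above each WT replicate, as in 19.1% of all genes tested, and the log2 fold change was 0.17 (SE 0.09, 95% confidence interval −0.04 to 0.37, adjusted p = 0.211). The count of mouse Ikzf5 is uncertain, since 84.5% of its exon bases are overlapped on the other strand by Pstk and Gm44624 in GENCODE M21, and whether the counting used strand was not given in the sources used here. Human IKZF5 shares 1.64% of its exon bases in this way. Ikzf4 was barely detected, at 0.931 to 2.27 CPM in WT and 0.970 to 2.07 CPM in KO.

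The levels of Ikzf1 and Ikzf3 moved with the pan-NK genes from library to library. The summed pan-NK level was 5398 and 5623 CPM in WT replicates 1 and 3, 9145 CPM in WT replicate 2, 9733 CPM in KO replicate 1, and 11310 and 11520 CPM in KO replicates 3 and 2. Ikzf1 and Ikzf3 were lowest in WT replicates 1 and 3, highest in KO replicates 2 and 3, and between in the remaining pair. The B cell genes, from cells that also express Ikzf1 and Ikzf3, summed to 951, 586 and 1667 CPM in WT, against 539, 121 and 103 CPM in KO. The part of the sorted population's makeup in the members' values was not tested, and in bulk libraries a different number of NK cells and a different amount of RNA per cell cannot be told apart.

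Given per 1000 CPM of the pan-NK genes, the mean of each member was lower in KO than in WT. The pan-NK sum itself was higher in each KO library (9733 to 11520 CPM) than in each WT library (5398 to 9145 CPM). A gene with an unchanged level therefore also falls on this scale. The permutation p-values of these ratios are not read as results about the members, and the share of all genes without overlap was not computed. Ikzf1 stood at 94.6, 70.2 and 96.0 in the WT replicates and at 61.2, 61.4 and 63.0 in the KO replicates, so that the KO replicates lay close together and below WT (two-sided exact permutation p = 0.1, the lowest value this design allows). Ikzf3 stood at 37.9, 31.9 and 41.2 in WT and at 25.9, 32.5 and 32.2 in KO, and the groups overlapped (exact permutation p = 0.3). Ikzf2 lay at 1.17 to 2.17 in WT and 0.889 to 1.16 in KO, and Ikzf5 at 4.27 to 7.13 in WT and 3.89 to 4.14 in KO (exact permutation p = 0.1 each). When the edgeR fit was scaled to the pan-NK genes, the log2 fold changes became −0.49 for Ikzf1, −0.29 for Ikzf3, −0.73 for Ikzf2 and −0.60 for Ikzf5 (adjusted p = 0.0807, 0.279, 0.0609 and 0.0709), while the median of all genes moved from 0.01 to −0.75. The sign of the mouse members thus depends on whether all genes or the pan-NK genes are taken as the reference. This scaling moves all genes by about the same amount, so the place of each member relative to the median gene is that of the main fit. Ikzf2 at −0.73 lay close to the median gene at −0.75.

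**Figure D3:**
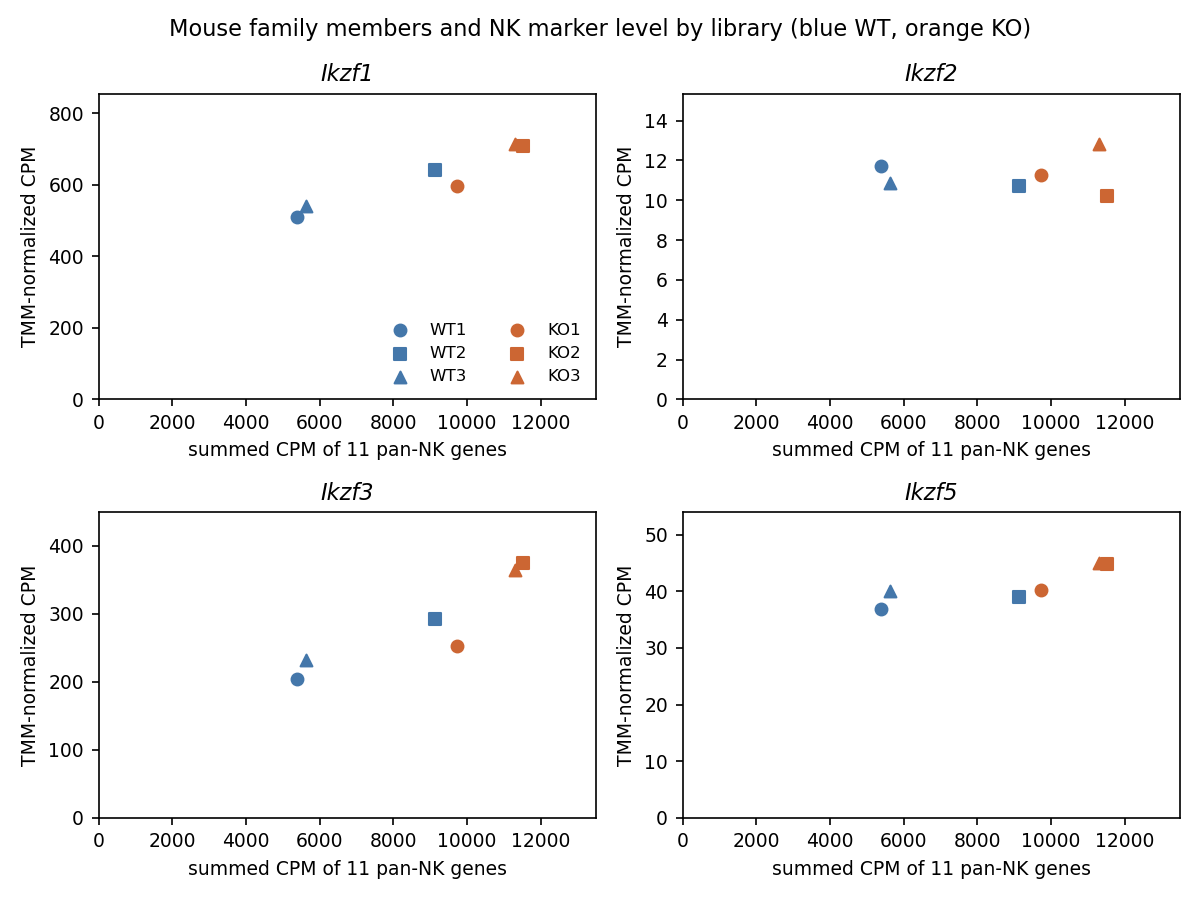
TMM-normalized CPM of each mouse member (vertical axes) against the summed CPM of 11 pan-NK genes (horizontal axes), with 1 point per library, WT in blue and KO in orange and the replicate given by the symbol. Ikzf1 and Ikzf3 lie low in WT1 and WT3 and high in KO2 and KO3, with WT2 and KO1 between, whereas Ikzf2 stays between 10.2 and 12.8 CPM.

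The share of each member in the counts of the 4 members does not depend on the scaling between libraries. In NK92MI cells the share of IKZF1 was 10.04, 9.88 and 10.3% with DMSO and 6.98, 6.84 and 6.95% with BIX-01294, a difference of −3.16 percentage points without overlap of the groups. That of IKZF3 was 58.1, 60.3 and 57.5% with DMSO and 60.7, 60.6 and 62.8% with BIX-01294, also without overlap (exact permutation p = 0.1 for both, the smallest possible). Shares sum to the whole, so the share of IKZF3 moves with that of IKZF1 and is no separate difference, and the level of IKZF3 did not pass the test. The share of IKZF2 was 28.7 ± 1.32% (SD, n = 3) with DMSO and 28.9 ± 1.41% with BIX-01294 (exact permutation p = 0.8). The share of IKZF5 was 2.59 ± 0.0433% with DMSO and 2.86 ± 0.248% with BIX-01294 (exact permutation p = 0.3). The log2 ratio of IKZF1 within libraries moved by −0.549 against IKZF2, by −0.607 against IKZF3 and by −0.683 against IKZF5, in each case without overlap of the groups and with an exact permutation p of 0.1. These ratios and the share of IKZF1 all rest on the same IKZF1 counts. They restate its lower level and are no separate differences. The share of all genes without overlap on these scales was not computed.

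In mouse NK cells the shares of all 4 members overlapped between the genotypes. Ikzf1 made up 65.9 ± 0.839% (SD, n = 3) of the family counts in WT and 63.8 ± 2.17% in KO, and Ikzf3 28.2 ± 1.46% in WT and 31.0 ± 2.62% in KO (exact permutation p = 0.3 for both). Ikzf5 made up 4.56 ± 0.512% in WT and 4.13 ± 0.301% in KO (exact permutation p = 0.2), and Ikzf2 1.31 ± 0.222% and 1.09 ± 0.180% (exact permutation p = 0.3). In KO replicates 2 and 3 the share of Ikzf3 was 33.0 and 32.1%, above the WT replicates at 26.8, 29.7 and 28.2%, and in KO replicate 1 it was 28.0%, within them.

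**Figure D4:**
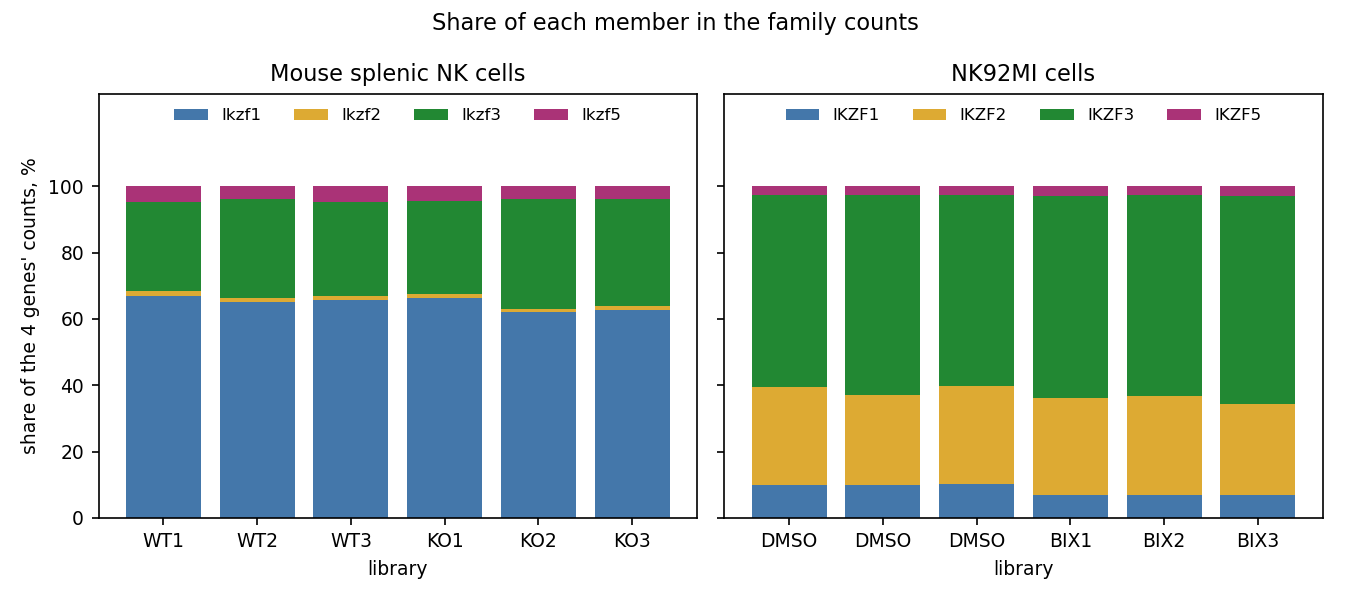
Share of each member in the summed counts of the 4 family genes, in percent, as 1 stacked bar per library for mouse NK cells (left) and NK92MI cells (right). The IKZF1 segment shrinks from 9.88 to 10.3% in the DMSO bars to 6.84 to 6.98% in the BIX-01294 bars, and the mouse bars are led by Ikzf1 at 62.2 to 66.9%.

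The genes whose levels followed each member most closely over the 6 libraries of its species were found by Pearson's r of log2 CPM among genes with a mean of at least 10 CPM, 9131 in mouse and 8555 in human. For IKZF1 they were CRIM1, AKAP5 and GVINP1 (r = 0.998 each), and 488 genes had r over 0.95. For IKZF2 they were NFATC2, BRCA2 and DCAF1, for IKZF3 GOLGB1, ATR and CLASP1, and for IKZF5 JAK2, MOSPD1 and PRDM4 (r from 0.975 to 0.995). In mouse, Traf3ip2, Mllt3 and Trp53bp2 were nearest to Ikzf1 and Zc3hav1, Limk1 and Tox to Ikzf3 (r from 0.996 to 0.999), and 486 and 387 genes had r over 0.95 with them. Eapp, Rab5a and Klhdc10 were nearest to Ikzf2, and Mark2, Vprbp and Kdm4b to Ikzf5 (r from 0.978 to 0.999). With 6 libraries in 2 groups, so high an r was reached by many genes.

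The NuRD complex pairs the nucleosome remodellers CHD3 and CHD4 with the histone deacetylases HDAC1 and HDAC2, and Ikaros and Aiolos bind it. In NK92MI cells 5 of its 13 genes tested fell with BIX-01294 and 1 rose, where 18.4% of all genes tested were called lower and 18.4% higher, with a median log2 fold change of −0.07 against −0.01 for all genes tested. Those that fell were MTA1, a scaffold subunit (91.4 to 100.5 CPM with DMSO and 68.7 to 69.5 CPM with BIX-01294, log2 fold change −0.46), its relative MTA2 (−0.22), HDAC1 (−0.19), HDAC2 (−0.27) and GATAD2A (−0.26). RBBP4, a histone-binding subunit that other complexes share, rose by 0.17. These changes are small, and HDAC1 lost its call without either of 2 DMSO libraries (adjusted p = 0.0655 and 0.106), MTA2 without BIX replicate 1 (0.0722), and RBBP4 without BIX replicate 1 or any of the DMSO libraries (0.0788 to 0.124). Of the remodellers, CHD3 was counted at 220 to 239 CPM with DMSO and 220 to 261 CPM with BIX-01294 (log2 fold change 0.05, adjusted p = 0.66). CHD4 was counted at 15.9 to 18.2 CPM with DMSO and 15.8 to 17.6 CPM with BIX-01294 (log2 fold change −0.0026, adjusted p = 0.987). Its count is uncertain, since 53.5% of its exon bases are shared with other annotated genes, in part on the same strand. In mouse NK cells 0 of the 13 genes passed in edgeR's test, against 11.9% of all genes, with a median of 0.10. At an unadjusted p under 0.05 there were 3 of the 13, against 35.8% of all genes, and DESeq2 called 1 and limma-voom 0. Chd4 had 422, 465 and 439 CPM in WT and 392, 506 and 516 CPM in KO (log2 fold change 0.09, adjusted p = 0.606).

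Of the other corepressors that the factors bind, RCOR1 (CoREST) rose in NK92MI cells from 53.8 to 56.0 CPM to 72.3 to 80.0 CPM (log2 fold change 0.47, SE 0.07, adjusted p = 0.000168) and CTBP1 fell from 91.3 to 95.3 CPM to 61.1 to 77.9 CPM (−0.39, SE 0.09, adjusted p = 0.00274), so that 2 of 4 tested were called, against 36.9% of all genes. In mouse, 1 of 5 fell (11.9% of all genes were called), Ctbp2, at 20.7 to 22.9 CPM in WT and 14.7 to 17.3 CPM in KO (−0.43, SE 0.11, adjusted p = 0.0468). Its adjusted p rose to between 0.0693 and 0.16 without any of the 3 KO replicates or WT replicates 1 or 3.

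Cereblon, the receptor through which lenalidomide acts on Ikaros and Aiolos, works in a ligase with DDB1, CUL4A or CUL4B and RBX1. In NK92MI cells DDB1 fell from 323 to 371 CPM to 268 to 281 CPM (log2 fold change −0.33, SE 0.07, adjusted p = 0.00151) and CUL4A from 242 to 252 CPM to 195 to 202 CPM (−0.32, SE 0.06, adjusted p = 0.000794), 2 of the 7 genes tested on a list that also held the subunits of casein kinase 2, which phosphorylates Ikaros, where 18.4% of all genes were called lower. CRBN was counted at 32.8, 33.6 and 38.3 CPM with DMSO and 29.0, 32.9 and 28.6 CPM with BIX-01294 (−0.21, SE 0.09, adjusted p = 0.0954), and passed without BIX replicate 2 (−0.27, adjusted p = 0.031). TRNT1 overlaps 35.6% of the exon bases of CRBN on the other strand. In mouse 0 of the 8 genes passed in edgeR's test, where 11.9% of all genes did, and 0 in DESeq2 or in limma-voom. At an unadjusted p under 0.05 there were 0 of the 8, against 35.8% of all genes. Crbn had 32.4, 35.3 and 32.1 CPM in WT and 33.6, 33.1 and 35.7 CPM in KO (0.04, SE 0.09, adjusted p = 0.788).

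Among genes known from other cells to be regulated by Ikaros or Aiolos, 6 of the 12 tested in NK92MI cells rose with BIX-01294 and 1 fell, where 18.4% of all genes tested were called in each direction. The median log2 fold change of the list was 0.38, against −0.01 for all genes. IL2 was among the genes tested and did not pass (log2 fold change 0.05, adjusted p = 0.766). Since this line carries an IL-2 transgene, its count cannot be read as that of the cells' own gene. Of the 6 that rose, 4 encode subunits of the AP-1 transcription factor, but so do most of the 12 genes tested on the list. JUN went from 69.1 to 78.2 CPM with DMSO to 226 to 259 CPM with BIX-01294 (log2 fold change 1.76, SE 0.07, adjusted p = 3.37e-09), JUNB from 34.3 to 38.1 CPM to 71.7 to 108 CPM (1.35, SE 0.12, adjusted p = 2.04e-06), FOSL2 from 162 to 171 CPM to 275 to 321 CPM (0.83) and JUND from 139 to 158 CPM to 164 to 242 CPM (0.43). The other two were lymphocyte transcription factors. BCL6, a repressor of germinal centre B cells, went from 24.9 to 28.0 CPM to 44.7 to 53.3 CPM (0.86, SE 0.09, adjusted p = 1.04e-05), and IRF4, a target of Ikaros and Aiolos in plasma cell tumours, from 242 to 256 CPM to 348 to 364 CPM (0.51, SE 0.06, adjusted p = 2.12e-05). FOS, also of AP-1, fell from 4.02 to 5.99 CPM to 2.53 to 3.96 CPM (−0.72, SE 0.22, adjusted p = 0.0206). Its call was lost without BIX replicate 1 or 2 or without either of 2 DMSO libraries (adjusted p from 0.0504 to 0.0916). FOSB and BATF, also of AP-1, did not pass (log2 fold change −0.18 and 0.34, adjusted p = 0.577 and 0.0549). The list was chosen with earlier results of these data known, so its count is not independent evidence of a direction.

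In mouse NK cells 8 of the 16 genes of that list tested were higher and 8 lower in KO, with a median of −0.04 against 0.01 for all genes, and 1 passed, against 11.9% of all genes. At an unadjusted p under 0.05 there were 8 of the 16, against 35.8% of all genes. DESeq2 called 2 of the list higher and 4 lower, and among all genes 1098 higher and 1989 lower. Jund had 416, 517 and 469 CPM in WT and 638, 700 and 590 CPM in KO (log2 fold change 0.46, SE 0.11, adjusted p = 0.0461), but 52.6% of its exon bases are overlapped by Gm11175 on the other strand, and its adjusted p rose to between 0.0555 and 0.162 without any of the 3 KO replicates or WT replicates 1 or 3. Jun, Junb and Bcl6, which rose in the human cells, had values of 0.04, 0.06 and −0.25 in mouse (adjusted p = 0.891, 0.804 and 0.103), and Irf4 −1.06 (adjusted p = 0.0647). Fosl2, which also rose in the human cells, was at 34.6 to 48.3 CPM in WT and 53.1 to 63.4 CPM in KO. Each KO replicate lay above each WT replicate, as in 19.1% of all genes tested, but Fosl2 did not pass (log2 fold change 0.44, adjusted p = 0.074). Dntt, Dtx1, Notch3 and Bcl6 went the other way, with each KO replicate below each WT replicate. None of them passed in edgeR's test (log2 fold change −1.47, −0.41, −1.02 and −0.25, adjusted p = 0.0577, 0.05004, 0.0994 and 0.103). The share of all genes that lay lower without overlap is not given here.

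**Figure D5:**
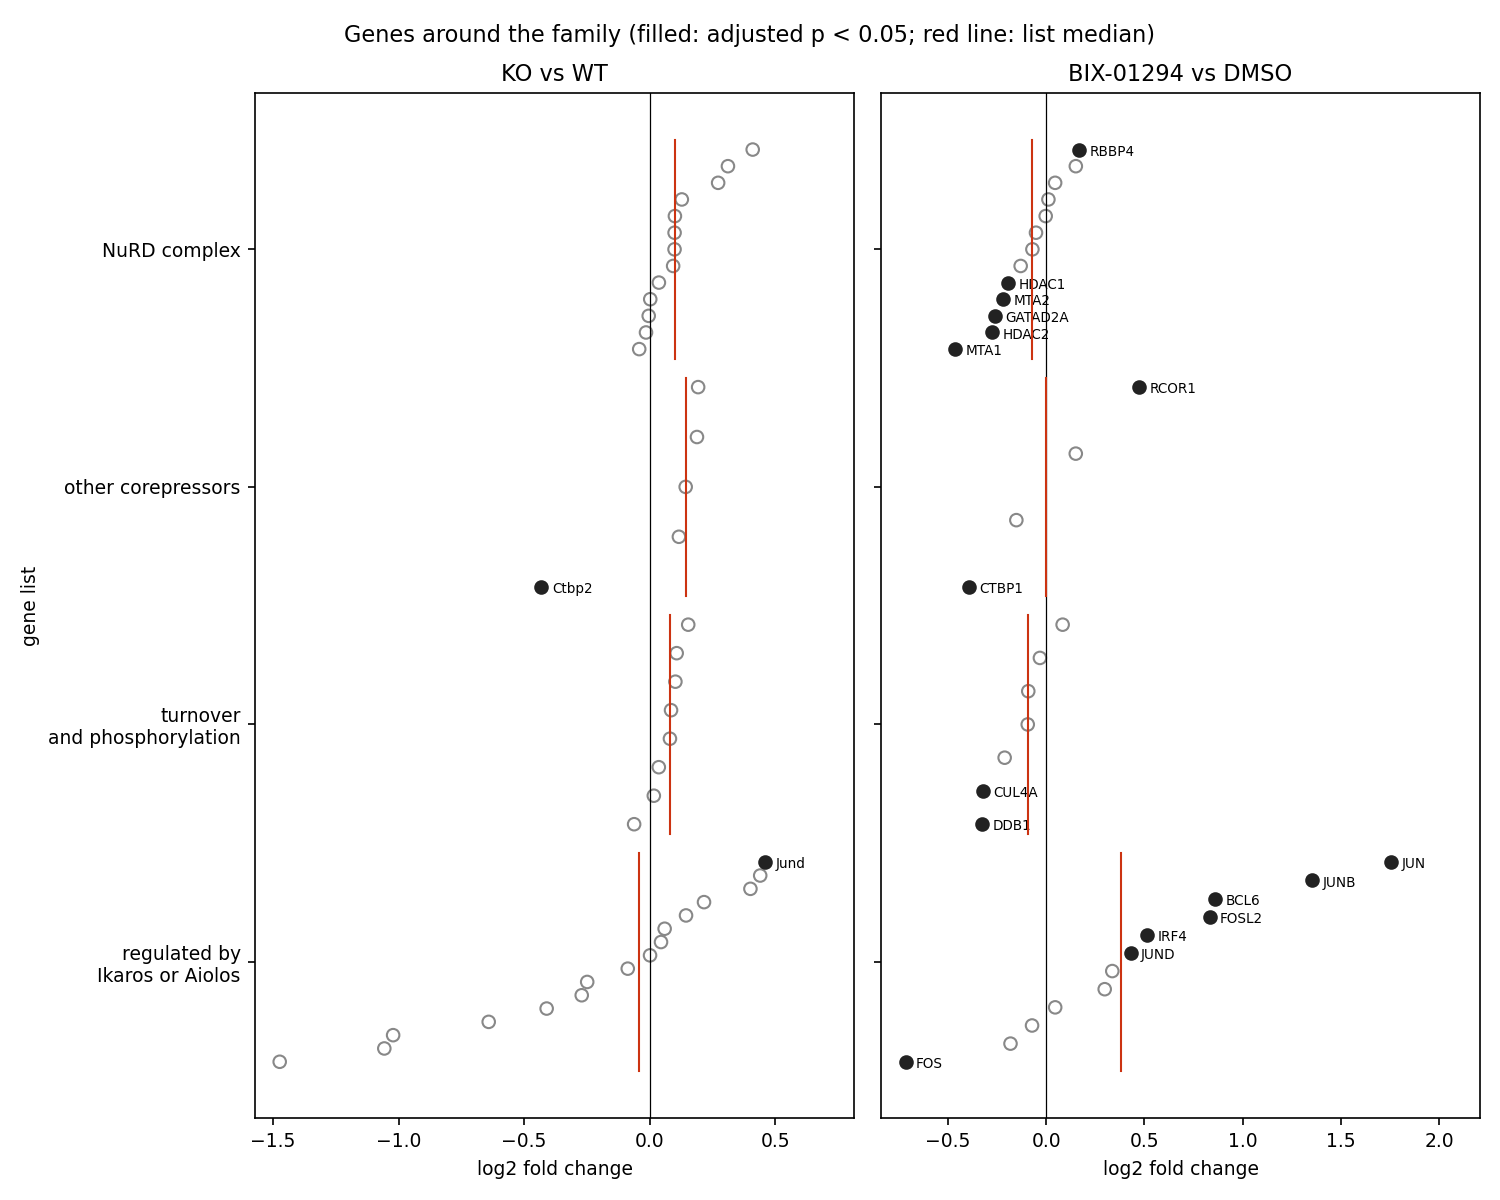
Log2 fold change of each tested gene on 4 lists around the family, for KO against WT (left) and BIX-01294 against DMSO (right). Filled points passed at an adjusted p under 0.05, open points did not, and red lines are list medians. In NK92MI cells JUN at 1.76 and JUNB at 1.35 lie farthest to the right, and in mouse the filled points are Ctbp2 at −0.43 and Jund at 0.46.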

How the data were processed

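RNA-seq of 3 WT and 3 KO mouse and 3 DMSO and 3 BIX-01294 human libraries was analysed. Per the study's methods and the submitters' processing notes, the authors trimmed reads with fastp 0.23.4, aligned them with STAR 2.7.11b, allowing 2 mismatches, to GRCm38 or GRCh38, and counted them per gene with HTSeq 2.0.3. The deposited values are raw counts per gene symbol. The annotation release and strand setting were not given in the sources used here. Libraries were grouped by their titles. The human control columns, named CON, were used as the DMSO group without replicate numbers. Nothing in the labels says that libraries came from separate animals or cultures, so p-values measure only the spread between these libraries.

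Each species was fitted separately in R 4.3.3 with edgeR 4.0.16 (TMM, filterByExpr, quasi-likelihood test, Benjamini-Hochberg adjustment over all genes tested), and the script was tested on simulated data. The study used DESeq2, which was run here as an alternative (1.42.0), besides limma 3.58.1, other scalings, filters and thresholds, a replicate block and each library left out. Shares and pan-NK ratios were compared with two-sided exact permutation tests. Gene positions, exon lengths and finger sequences came from GENCODE M21 and 44, which may differ from the release the authors used. All members were named, as were list genes that passed, Crbn and Chd4, the 3 genes most like each member, and the target of the study. Ikzf4 and some list genes that did not pass, such as CHD3, FOSB, BATF, Fosl2 and Dntt, were also named, without a fixed rule. The members, lists and rules were chosen with earlier results of these data known. Counting error is small at these depths for the members except Ikzf2. It is larger for Ikzf2 and for other genes with few counts, such as Ikzf4, CHD4, FOS (43 to 103 counts per library) and CD79A (8 to 34 counts per library).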

Additional observations from a re-analysis of the deposited data

How the results depend on the processing

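IKZF1 stayed between −0.61 and −0.47 on the log2 scale, with an adjusted p of at most 0.00103, under all 13 alternatives run for it, and the difference in its share of the family counts stayed between −3.26 and −3.04 percentage points. Changes of sign elsewhere were as follows. Scaling the mouse libraries to the pan-NK genes gave −0.49 for Ikzf1, −0.73 for Ikzf2, −0.29 for Ikzf3, −0.60 for Ikzf5, −0.67 for Chd4, −0.72 for Crbn and −0.28 for Jund. This scaling moves all genes alike, taking the median gene from 0.01 to −0.75, so it changes the sign of any gene with a smaller positive value. With 1 library left out, Ikzf2 lay between −0.043 and 0.12, Ikzf3 between 0.34 and 0.60, Ikzf4 between −0.43 and 0.49 (0.18 without KO replicate 2, 0.09 without KO replicate 3 and 0.49 without WT replicate 1), IKZF2 between −0.091 and 0.12 (−0.04 without a DMSO library), its share between −0.602 and 0.942 percentage points, and CHD4 between −0.040 and 0.058 (0.0025 without BIX replicate 1 and 0.041 without BIX replicate 2). IKZF2 was also at −0.0039 with library totals only, and CHD4 at 0.0028 with DESeq2's size factors or DESeq2 and 0.0022 without a filter. The cause was not tested.

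The counts of genes past an adjusted p of 0.05 were 585 higher and 980 lower for KO. They were 1098 and 1989 with DESeq2 and 35 and 7042 with pan-NK scaling, and 0 and 0 in edgeR's test at the thresholds of the study, which itself used DESeq2 (not run here at those thresholds). With 1 library left out they ranged from 0 (without KO replicate 2 or 3) to 1433 and from 0 to 2097 (without WT replicate 2). For BIX-01294 the 2348 higher and 2344 lower became 794 and 691 at the thresholds of the study. At those thresholds the mouse corepressor and regulated lists had 0 calls, as had the human NuRD, corepressor and turnover lists and the lower calls of the regulated list. Lower calls on the mouse regulated list were 1 with DESeq2's size factors, 1 with a mean of at least 1 CPM and 2 without a filter. DESeq2 gave 1 higher on mouse NuRD and 2 higher and 4 lower on the mouse regulated list. Pan-NK scaling gave 10 lower on NuRD, 2 on corepressors, 6 on turnover, and 0 higher and 9 lower on the regulated list. Library totals only gave 0 higher on human NuRD. With 1 library left out, mouse calls ranged from 0 to 3 higher on NuRD, 0 to 1 higher and 0 to 1 lower on corepressors, and 0 to 2 higher and 0 to 4 lower on the regulated list, and human calls from 0 to 2 higher on NuRD, 1 to 2 higher and 1 to 2 lower on corepressors and 0 to 1 lower on the regulated list.

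With the replicate number as a block in the mouse fit, Ikzf3 had 0.44 (adjusted p = 0.0189 by edgeR), Ikzf4 0.016, and 1297 genes had higher and 1941 lower levels, with 3 higher on NuRD and 2 higher and 4 lower on the regulated list. Whether the numbers pair the libraries is not given. The correlations of deviations between same-numbered libraries were 0.281, 0.352 and −0.188, and KO replicate 1 correlated as well with WT replicate 3 (0.284). No paired analysis was possible for the human libraries because the control columns carry no link to the numbered samples.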
